A study of Mus musculus with 16 samples.

Results

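The forkhead box O transcription factors Foxo1, Foxo3 and Foxo4 and 7 genes reported as their liver targets (Igfbp1, Pck1, G6pc, Ppargc1a, Sesn1, Sesn3 and Bcl6) were followed across 16 mouse livers. These 10 genes are a named list, found on the array through the accession of each probe, out of 20284 genes with a RefSeq symbol. All 10 were on the array, with 13 probes in all, and 9 could be tested. Foxo4 was not, because each of its 2 probes rose well above background on only 6 of the 16 arrays.

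The livers came from male ApoE KO mice, which lack apolipoprotein E, fed a high-fat diet, with a stated age of 8 weeks. In the 8 miR-185-inh mice a lentivirus carried an antisense sequence against the microRNA miR-185. The 8 ctrl-inh mice, of the same genotype, sex and diet, received a control inhibitor that the labels do not describe further. Livers were harvested after 8 weeks, and Cy3-labelled cRNA made from 0.5 µg of RNA was hybridised to 1-colour Agilent arrays, 1 array a sample. The labels do not say which liver cells took up the virus. The title of the series names FoxO1 as a link between miR-185 and Cyp7a1, which catalyses the rate-limiting step of bile acid synthesis.

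In the fasted liver, FoxO factors enter the nucleus and switch on genes of glucose production and of restraint on growth. After feeding, insulin acts through its receptor and the kinase Akt, which phosphorylates FoxO proteins so that they leave the nucleus and their targets fall. FoxO activity is therefore set largely by protein modification and location, which an array of RNA does not measure.

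Of 59305 non-control spots, between 58.5% and 74.6% were well above background on an array, and the median signal ran from 182 to 268. Slide 1 carried the control arrays only and slide 2 the arrays of treated mice only, so the slide with its scan and the treatment cannot be told apart wherever the groups are compared. Each slide held 2 rows of arrays, and values within a row are given beside several results below. The control arrays of row 1, with 68.3% to 74.6% of spots well above background, exceeded every array of treated mice, at 60.3% to 66.8%. The labels number the samples, each called a mouse here, without saying that they were separate animals. The p-values therefore measure only how these samples vary, and that variation may be technical. The 8 hepatocyte markers, among them Alb and Ttr, were all detected. Of them 0 were called between the groups and 0 had an unadjusted limma p under 0.05, beside 4.73% and 20.2% of all features. Summed linear levels of these markers were 268 to 378 in ctrl-inh and 269 to 343 in miR-185-inh. In bulk liver, fewer cells of a type and less RNA per cell cannot be told apart. The number of arrays limits the precision.

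Sequence shows which members carry the letters that FoxO factors are known to recognise. In RefSeq windows of 300 bases (250 before and 50 after the start of the gene, build GRCm38.p6), the insulin response element core CAAAACA and the forkhead core GTAAACA were searched on both strands. GTAAACA ends with the letters that begin CAAAACA, so the motifs can overlap, but no member window held both. CAAAACA, or its reverse complement, was in 6.28% of 32851 windows of this length, GTAAACA in 3.65%, and either in 9.63%. Among 11 windows of 9 members, 3 held one of them, in Igfbp1, G6pc and Sesn1. The Igfbp1 and G6pc windows are shown because these genes are the classic insulin-repressed targets, with the motif in capitals. The first is chr11:7197537-7197836, plus strand, and the second is chr11:101367466-101367765, plus strand.
Igfbp1: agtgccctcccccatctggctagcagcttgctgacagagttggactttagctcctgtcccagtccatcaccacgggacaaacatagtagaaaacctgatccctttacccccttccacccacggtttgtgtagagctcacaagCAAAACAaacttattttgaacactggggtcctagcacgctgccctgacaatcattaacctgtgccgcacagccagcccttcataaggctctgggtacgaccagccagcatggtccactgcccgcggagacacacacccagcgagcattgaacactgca
G6pc: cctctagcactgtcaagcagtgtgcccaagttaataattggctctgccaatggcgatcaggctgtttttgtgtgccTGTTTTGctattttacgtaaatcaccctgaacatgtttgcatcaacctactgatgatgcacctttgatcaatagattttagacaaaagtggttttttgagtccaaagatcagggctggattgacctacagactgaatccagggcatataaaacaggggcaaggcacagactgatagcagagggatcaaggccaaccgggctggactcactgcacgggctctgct
The match in Igfbp1 begins 108 bases before the start of the gene. The one in G6pc begins 174 bases before it, on the opposite strand. In Sesn1 the forkhead core lay 23 bases after the start, on the opposite strand. No match in the windows of Pck1, Ppargc1a, Sesn3, Bcl6, Foxo1 or Foxo3 says only that these letters are not in these windows, and any match is a description, not a site.

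The first comparison asks whether FoxO factors or their targets differed in RNA level between miR-185-inh and ctrl-inh livers. Foxo1 was 1.22-fold higher and Igfbp1, the secreted binding protein for insulin-like growth factors, 1.45-fold lower on average in miR-185-inh livers, and neither passed the test over all features. Pck1 and G6pc carry out the steps of glucose production at phosphoenolpyruvate and at glucose 6-phosphate. Their mean differences were 0.031 and -0.16 in log2 units, and neither passed. Levels are in log2 units with each array's 75th percentile at 0. None of the 9 members tested passed limma at a Benjamini-Hochberg adjusted p of 0.05, where 4.73% of 25795 features did. At an unadjusted p under 0.05, 2 of the 9 passed, Foxo1 and Igfbp1, where 20.2% of all features did. Among the 9, 4 differences were above 0 and 5 below, with a median of -0.0075, beside a median of -0.033 over all features.

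Foxo1, the main FoxO factor of hepatocytes, ran from 1.64 to 1.94 in ctrl-inh livers, with a median of 1.73. In miR-185-inh livers it ran from 1.72 to 2.53, with a median of 1.94. The groups overlapped, 7 of 8 values of the miR-185-inh group exceeded the control mean of 1.74 ± 0.092 (SD, n = 8), and 4 lay above the highest control. The difference was 0.29 (SE 0.097), with an exact permutation p of 0.00404 (two-sided, over 6435 splits) and a limma adjusted p of 0.0969. Mice 3 and 6, at 2.30 and 2.53, were the highest of all 16, while the remaining 6 of the group lay between 1.72 and 2.0. Without them the difference was 0.16, with an adjusted p of 0.167. By slide row, row 1 gave 0.37 and row 2 gave 0.21.

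A second, dimmer Foxo1 probe gave a difference of 0.22 with an exact permutation p of 0.179. It read 0.56 to 1.1 in ctrl-inh and 0.65 to 1.56 in miR-185-inh livers. On this probe too mice 3 and 6 were highest, at 1.48 and 1.56. The other 6 miR-185-inh mice, at 0.65 to 0.92, lay within the control range.

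**Figure D1:**
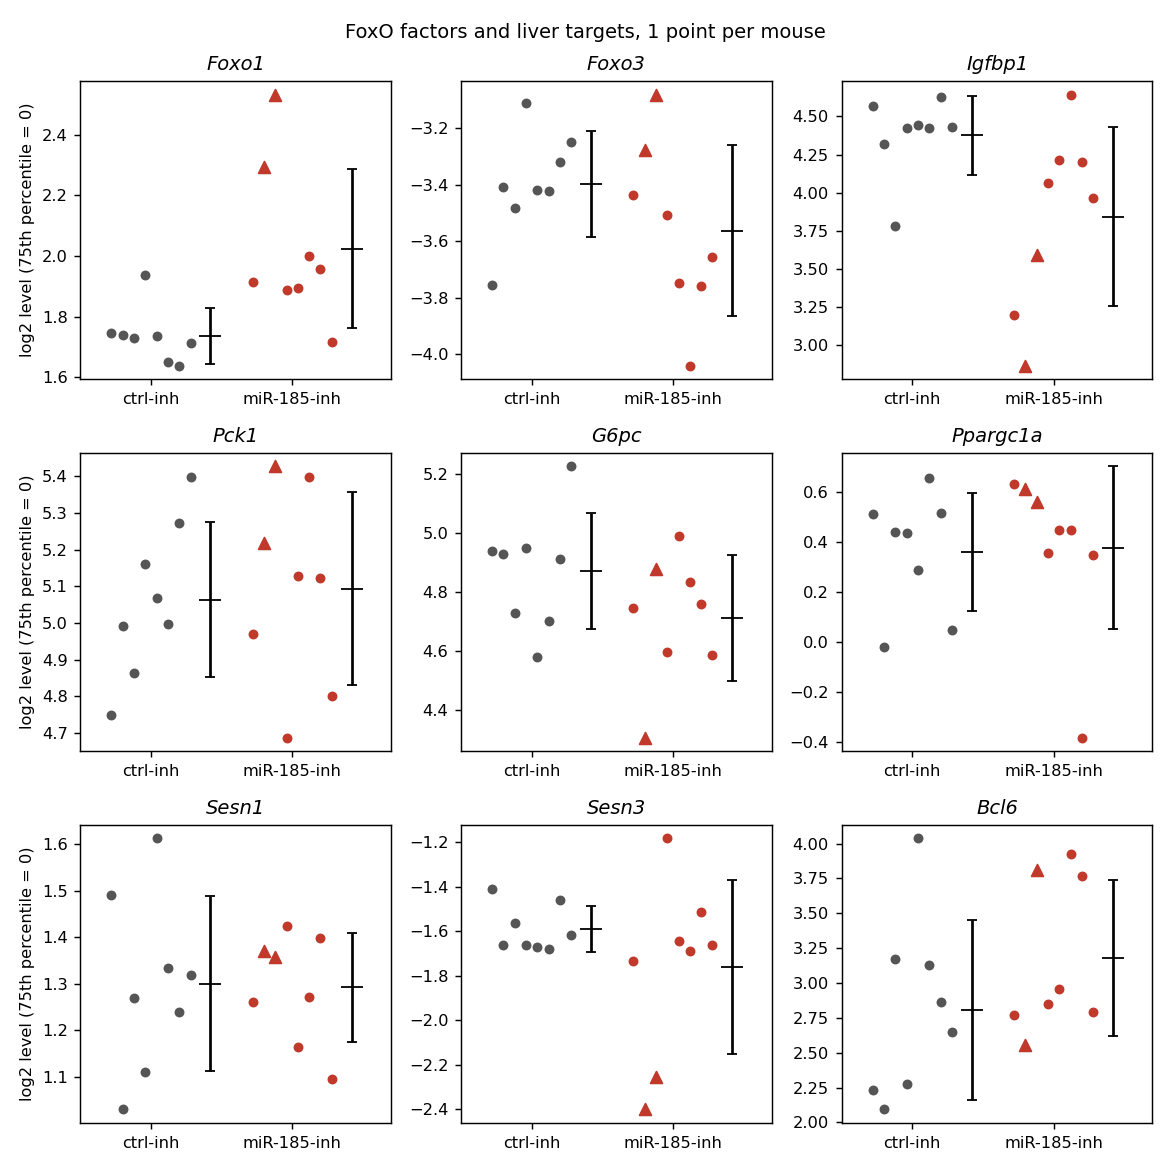
Log2 level (each array's 75th percentile at 0, a separate axis for each gene) of the 9 tested members in 8 ctrl-inh and 8 miR-185-inh mice, 1 point a mouse, with the mean and SD of each group at its right. Triangles are miR-185-inh mice 3 and 6, which have the highest Foxo1 (2.30 and 2.53) and the lowest Sesn3 (-2.40 and -2.26); the groups overlap for every gene drawn.

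Foxo3, a related factor with many of the same binding sites, ran from -3.75 to -3.11 in ctrl-inh livers (median -3.41) and from -4.04 to -3.08 in miR-185-inh livers (median -3.58). The difference of -0.17 (SE 0.12) was within the spread, with an exact permutation p of 0.205. It changed sign between slide rows, at 0.11 in row 1 and -0.45 in row 2, where the limma adjusted p was 0.0674. As for Foxo1, the highest Foxo3 of the miR-185-inh group was in mice 3 and 6, at -3.28 and -3.08. Each of the 2 Foxo4 probes passed background on 4 control arrays and on 2 arrays of treated mice. Those control arrays were the ones of slide row 1, which had the highest percentages of spots well above background. Measured differences of the 2 probes were 0.012 (exact permutation p = 0.956) and 0.14 (exact permutation p = 0.240), which at this signal carry no call.

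Igfbp1 RNA is classically raised by fasting and lowered by insulin. It ran from 3.78 to 4.63 in ctrl-inh livers, with a median of 4.43, and from 2.86 to 4.64 in miR-185-inh livers, with a median of 4.01. Control mouse 3 lay below the others of its group, which were close together. In the miR-185-inh group mice 1, 3 and 6, at 3.19, 2.86 and 3.59, were below every control, while mouse 9, at 4.64, was above every control. The difference was -0.54 (SE 0.21), with a 95% interval from -0.98 to -0.093, an exact permutation p of 0.0311 and a limma adjusted p of 0.154. Slide row 1 gave -0.85 and row 2 -0.22, and the value was -0.33 without mice 3 and 6.

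Pck1, the cytosolic phosphoenolpyruvate carboxykinase, ran from 4.75 to 5.40 in ctrl-inh and from 4.69 to 5.43 in miR-185-inh livers, with medians of 5.03 and 5.13. The ranges nearly coincided, and the difference of 0.031 (SE 0.12) had a 95% interval from -0.21 to 0.27. G6pc, the catalytic subunit of glucose-6-phosphatase, ran from 4.58 to 5.23 in ctrl-inh and from 4.31 to 4.99 in miR-185-inh livers, with medians of 4.92 and 4.75. Its difference of -0.16 (SE 0.10) had an interval from -0.37 to 0.054 and an exact permutation p of 0.145. Ppargc1a, the coactivator PGC-1α that works with FoxO1 on gluconeogenic genes, ran from -0.017 to 0.66 in ctrl-inh and from -0.38 to 0.63 in miR-185-inh livers. Its difference was 0.017 (SE 0.13), with an interval from -0.27 to 0.30, and all treated mice but mouse 10 had values between 0.35 and 0.63. The second Ppargc1a probe differed by -0.13, with an exact permutation p of 0.449.

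Sesn1 and Sesn3 encode sestrins, stress-induced proteins that restrain mTORC1. Sesn1 ran from 1.03 to 1.61 in ctrl-inh and from 1.1 to 1.42 in miR-185-inh livers, with a difference of -0.0075 and an interval from -0.18 to 0.16. Sesn3 ran from -1.68 to -1.41 in ctrl-inh livers (median -1.64) and from -2.40 to -1.18 in miR-185-inh livers (median -1.68). Its mean difference of -0.17 (SE 0.14) had an exact permutation p of 0.281. The values of mice 3 and 6 were far below the rest, at -2.40 and -2.26, and without them the difference was 0.020. By slide row it was -0.32 in row 1 and -0.020 in row 2. Bcl6, a transcriptional repressor of lipid genes in liver, ran from 2.09 to 4.04 in ctrl-inh and from 2.56 to 3.93 in miR-185-inh livers. The controls spanned the whole range of the 16 mice, and the difference of 0.37 (SE 0.28) had an interval from -0.21 to 0.96, with 0.55 in slide row 1 and 0.19 in row 2.

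For 7 of the 9 members the 95% interval lay within a 1.5-fold change in either direction. The exceptions were Igfbp1, whose interval reached 0.507 of the ctrl-inh level, and Bcl6, whose interval reached a 1.94-fold rise. A p that misses the threshold does not show that the groups were alike, and these intervals give the sizes the data leave room for.

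**Figure D2:**
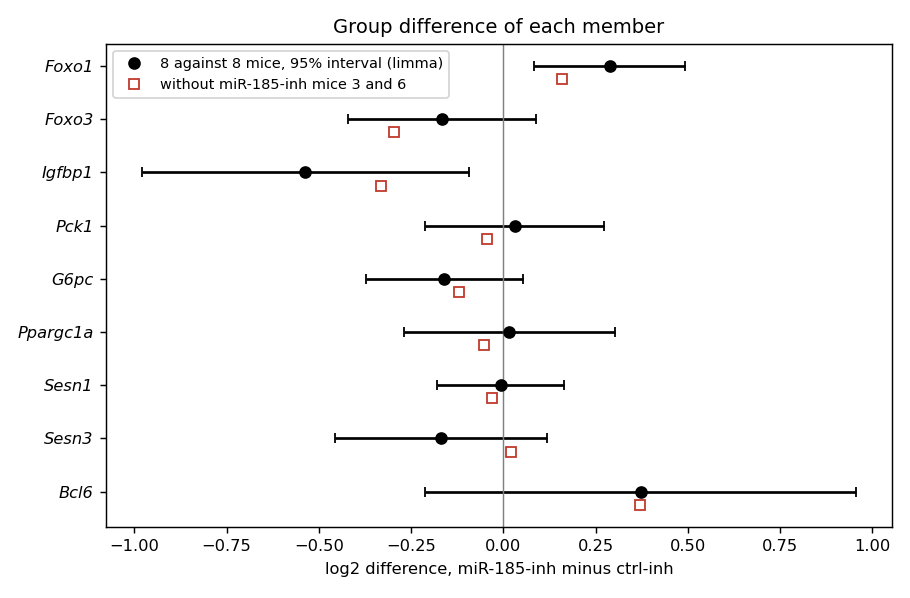
Log2 difference, miR-185-inh minus ctrl-inh, of each tested member with its 95% limma interval (black), and the same difference without miR-185-inh mice 3 and 6 (open squares). The intervals of Foxo1 (0.083 to 0.49) and Igfbp1 (-0.98 to -0.093) do not reach 0 before adjustment, and the squares of Foxo1 (0.16) and Igfbp1 (-0.33) lie nearer to 0.

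The second comparison asks whether targets varied with Foxo1 from mouse to mouse. The correlation with Foxo1 was positive for Foxo3 and Pck1, negative for Sesn3 and Igfbp1 and near 0 for G6pc, and no member's slope passed the test over all features. Several of these correlations rest on miR-185-inh mice 3 and 6. Each group was centred on its own mean, so that the group difference does not enter, and Pearson's r was taken over 16 arrays. The slope on Foxo1, fitted by limma with group as a term, passed an adjusted p of 0.05 for 0.485% of 25794 features and for none of the 8 members other than Foxo1. An unadjusted p under 0.05 was reached by 3 of the 8, Foxo3, Pck1 and Sesn3, where 11.1% of all features reached it. The median r of the 8 members was 0.14, beside 0.030 for all features, whose 5th and 95th percentiles were -0.49 and 0.56.

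Sesn3 had an r of -0.75 (adjusted p = 0.0919 by limma). Foxo3 had 0.61 (adjusted p = 0.286 by limma) and Pck1 0.53 (adjusted p = 0.420 by limma). For Igfbp1 r was -0.40 and for G6pc it was 0.0048. Ppargc1a, Sesn1 and Bcl6 had r of 0.21, 0.18 and 0.11. Leaving out miR-185-inh mice 3 and 6, whose Foxo1 lay farthest from the group median, r became -0.099 for Sesn3, 0.0082 for Foxo3, 0.14 for Igfbp1 and 0.32 for Pck1. The relations of Sesn3 and Foxo3 to Foxo1 thus rest on these mice. Leaving them out also narrows the range of Foxo1, which can lower r by itself, so the fall in r cannot show that no relation exists.

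**Figure D3:**
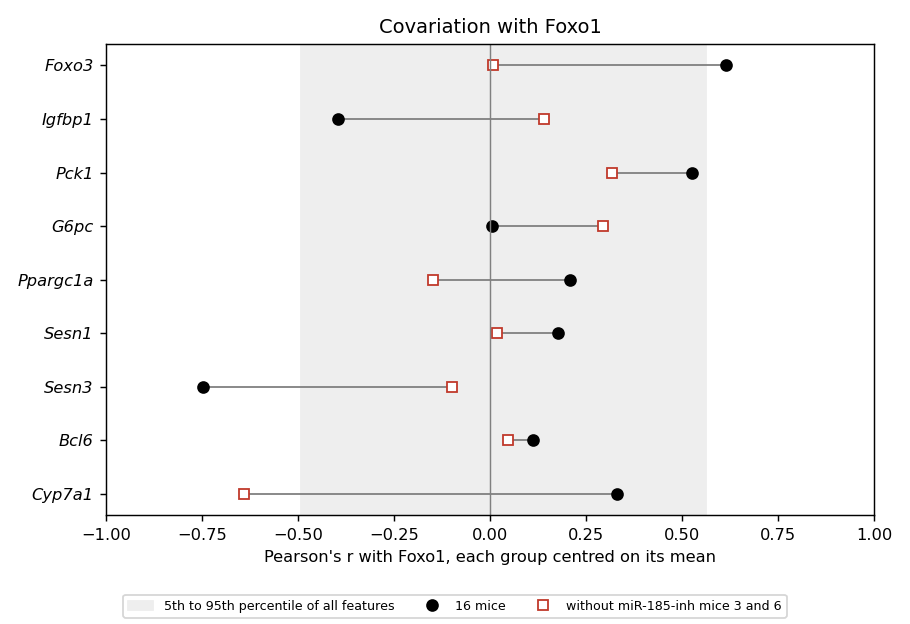
Pearson's r of each member and of Cyp7a1 with Foxo1, each group centred on its mean, over 16 mice (black) and without miR-185-inh mice 3 and 6 (open squares), with the span from the 5th to the 95th percentile of all features shaded. Sesn3 moves from -0.75 to -0.099, Foxo3 from 0.61 to 0.0082 and Cyp7a1 from 0.33 to -0.64.

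Within groups, 18 relations were computed over 40320 pairings of 8 mice each. Limma slopes passed an adjusted p of 0.05 for 0 of all features in ctrl-inh and 0 in miR-185-inh, with an unadjusted p under 0.05 in 7.20% and 9.60% of them. In the miR-185-inh group Pck1 had r = 0.72 (exact permutation p = 0.0389, limma adjusted p = 0.474) and Spearman's rho = 0.88 (exact permutation p = 0.00724). Without mice 3 and 6 its r was 0.70 over 6 mice (exact permutation p = 0.119). Among ctrl-inh mice, whose Foxo1 spans a narrow range, r of Pck1 was -0.033 and rho -0.40. The difference between the groups' slopes was not called for Pck1 (limma adjusted p = 0.795). Within slide rows, each with 8 arrays, the group-centred r of Pck1 was 0.91 in row 1 and 0.72 in row 2.

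Sesn3 had r = -0.79 (exact permutation p = 0.0234, limma adjusted p = 0.334) and rho = -0.69 (exact permutation p = 0.0694) in miR-185-inh mice, and r = 0.0082 without mice 3 and 6. In ctrl-inh mice its r was -0.27. By slide row the group-centred r was -0.81 in row 1, which holds mice 3 and 6, and -0.034 in row 2. Foxo3 had r = 0.68 (exact permutation p = 0.0642) in miR-185-inh mice and -0.42 without mice 3 and 6, and by row 0.74 and -0.64. For Igfbp1 the r by row was -0.15 and 0.67. The slope of no member differed between the groups at an unadjusted p under 0.05, which 7.71% of all features reached and 0 reached after adjustment.

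Cyp7a1, named by the series with FoxO1, is no FoxO list member but bears on the question. It ran from 0.66 to 2.17 in ctrl-inh livers (median 1.51) and from 1.27 to 3.41 in miR-185-inh livers (median 2.06), a difference of 0.71 (SE 0.27) with an exact permutation p of 0.0247 and a limma adjusted p of 0.136. By slide row the difference was 1.35 in row 1, which holds mice 3 and 6, and 0.079 in row 2. The group-centred r with Foxo1 was 0.40 in row 1 and -0.78 in row 2. Against Foxo1 its r was -0.74 (exact permutation p = 0.0211, limma adjusted p = 0.675) and rho -0.83 (exact permutation p = 0.0154) in ctrl-inh mice. Without ctrl-inh mice 4 and 11 the r was -0.56 over 6 mice (exact permutation p = 0.265). In miR-185-inh mice r was 0.68 (exact permutation p = 0.0752) and rho 0.31, and without mice 3 and 6 r was -0.50. The slopes of the groups differed at an unadjusted limma p of 0.00458 and an adjusted p of 0.633. Mouse 6 had the highest Foxo1 and the highest Cyp7a1 of all 16.

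**Figure D4:**
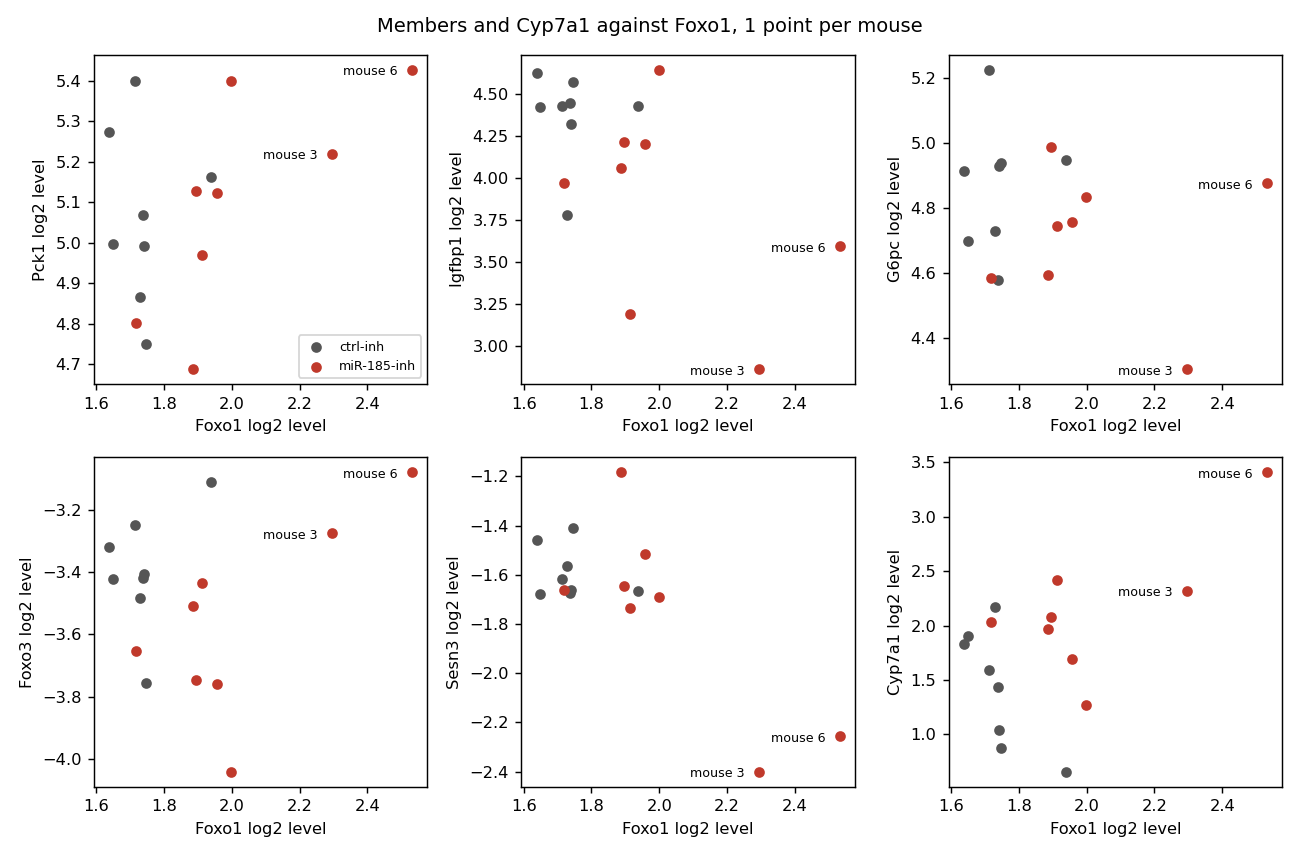
Log2 level of 5 members and Cyp7a1 against the Foxo1 log2 level, 1 point a mouse, ctrl-inh in grey and miR-185-inh in red, with miR-185-inh mice 3 and 6 named. Mice 3 and 6 stand to the right of all others at Foxo1 levels of 2.30 and 2.53; Pck1 has r = 0.72 with Foxo1 in miR-185-inh mice, and Sesn3 is lower in mice 3 and 6 than in the other mice.

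An array measure moved with Foxo1 as well, in the miR-185-inh group. In miR-185-inh arrays Foxo1 correlated with the percentage of spots well above background at r = 0.81 (exact permutation p = 0.0151, n = 8), and mice 3 and 6 had the highest percentages of the group. In ctrl-inh arrays r was 0.37 (exact permutation p = 0.405, n = 8). The median signal had r of -0.48 (exact permutation p = 0.266) in miR-185-inh and 0.13 (exact permutation p = 0.746) in ctrl-inh arrays. For the 75th percentile r was -0.097 (exact permutation p = 0.835) and 0.26 (exact permutation p = 0.512). The part of these measures in the covariation was not tested. The Foxo1 probes themselves had a group-centred r of 0.89 with each other. Without the mice farthest from the median their r was -0.23 in 6 miR-185-inh and 0.19 in 6 ctrl-inh mice, so the agreement of the probes rests on those mice. Here too the range of Foxo1 is narrower without them.

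The features with a regular gene symbol most like Foxo1 by group-centred r were Amigo2 (0.94), Sp8 (0.93), Mknk2 (0.93), St3gal5 (0.92) and Klf13 (0.91). All had called slopes over 16 arrays. The lowest were Vmn1r81 (-0.88), Dtx4 (-0.88), Denn2b (-0.87), Gata4 (-0.85) and Nrg1 (-0.85). Without mice 3 and 6 the r values were 0.55 to 0.78 and -0.54 to -0.33, and none was called. Of the 125 features with a called slope, 80 positive and 45 negative, 0 were called without these mice, when 1901 features had an unadjusted p under 0.05, and 114 kept their sign. Without mouse 6 alone 0 features were called, and without mouse 3 alone 11. The count was also low without miR-185-inh mouse 7 (36), 8 (50) or 12 (63) and without ctrl-inh mouse 2 (71), 3 (58), 8 (81) or 9 (73).

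Genes upstream of FoxO, which include the insulin receptor, kinases, phosphatases, 14-3-3 proteins, acetylation and export factors and the related factor Foxo6, showed no called difference. Of 24 tested, 0 rose and 0 fell by limma, 0 had an unadjusted p under 0.05, and the median difference was 0.0088. Of all features, 4.73% were called and 20.2% had an unadjusted p under 0.05. No slope on Foxo1 was called among the 24, beside 0.485% of all features, and 2 had an unadjusted p under 0.05, beside 11.1%. The smallest p belonged to Trib3, a pseudokinase that binds Akt, with a difference of 0.46 (adjusted p = 0.249 by limma). Pdpk1, the kinase that activates Akt, differed by 0.21, the nuclear exporter Xpo1 by -0.12 and the deacetylase Sirt1 by 0.14.

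Among 28 other reported FoxO targets, 0 rose and 0 fell by limma, beside 4.73% of all features called. The median difference was 0.010, and 5 of the 28 had an unadjusted p under 0.05 (the share of all features was 20.2%). Those with the smallest p were Cited2, a CBP/p300-binding transcriptional regulator, at 0.26 (adjusted p = 0.0952 by limma), Pnpla2, the lipase that starts triglyceride breakdown, at 0.22, Sesn2 at -0.19 and the apoptosis gene Bcl2l11 at 0.46. Without mice 3 and 6 Cited2 was called, with an adjusted p of 0.0257. Slopes on Foxo1 were called for 2, beside 0.485% of all features. These were the fasting-related factor Klf15 (r = 0.86) and the coactivator Ppargc1b (r = 0.78), named after their values were seen. An unadjusted slope p under 0.05 was reached by 10 of the 28, beside 11.1% of all features. In mice 3 and 6 Klf15 stood at 2.88 and 3.01, and in the remaining 6 of the group at 2.22 to 2.76.

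Of 22 gluconeogenesis enzymes and regulators, 1 rose and 0 fell by limma, beside 4.73% of all features called. The median difference was -0.019. An unadjusted p under 0.05 was reached by 5 for the difference and 5 for the slope, beside 20.2% and 11.1% of all features. Kat2a, an acetyltransferase that modifies PGC-1α, rose by 0.26 (SE 0.071, adjusted p = 0.0470 by limma), from 0.52 ± 0.071 (SD, n = 8) to 0.78 ± 0.17 (SD, n = 8), and with the mean of its probes the difference was 0.086 (adjusted p = 0.416). The next smallest p were those of Fbp1, fructose-1,6-bisphosphatase, at -0.15, the malate dehydrogenase Mdh1 at -0.17, the coactivator Crtc2 at 0.14 and the factor Cebpa at 0.24, none called. Only 1 slope on Foxo1 was called, that of the serine dehydratase Sds (r = 0.79), named after its values were seen. The share of all features with a called slope was 0.485%.

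Of 14 fasting-induced liver genes, 1 rose and 0 fell by limma, beside 4.73% of all features called. The median difference was -0.050. An unadjusted p under 0.05 was reached by 1 for the difference and 7 for the slope, beside 20.2% and 11.1% of all features. Fkbp5, a glucocorticoid-induced cochaperone, rose by 0.56 (SE 0.15, adjusted p = 0.0411 by limma), from 1.88 ± 0.22 (SD, n = 8) to 2.44 ± 0.40 (SD, n = 8), with an exact permutation p of 0.000622. Angptl4, an inhibitor of lipoprotein lipase, differed by -0.16, the clock gene Per1 by 0.62 and the peroxisomal enzyme Ehhadh by -0.078, none called. Without miR-185-inh mice 3 and 6 the Per1 difference turned to -0.090. Slopes on Foxo1 were called for 3 of the 14, beside 0.485% of all features. These were Lpin1 (r = 0.82), Per1 (r = 0.81) and Fkbp5 (r = 0.80), Lpin1 being named after its values were seen. In slide row 1 these r were 0.87, 0.82 and 0.96, and in row 2 they were -0.061, 0.091 and 0.0072. Per1 stood at 1.64 and 2.87 in mice 3 and 6, while the remaining 6 of their group ran from -1.31 to 0.69. Lpin1 stood at 1.46 and 1.01 in them, while the remaining 6 ran from -2.30 to -1.31.

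Of 14 genes induced by insulin and feeding, 0 rose and 0 fell by limma, beside 4.73% of all features called. The median difference was -0.035. An unadjusted p under 0.05 was reached by 1 for the difference and by 4 for the slope, beside 20.2% and 11.1% of all features. No slope was called, beside 0.485% of all features. The glycogen-targeting subunit Ppp1r3b differed by -0.21, Angptl8, a secreted feeding signal, by 0.35, the elongase Elovl6 by -0.23 and the lipogenic factor Srebf1 by 0.23. Without mice 3 and 6, 0 slopes were called in any of these 5 lists. In the same fit Fkbp5 was not called (adjusted p = 0.0533). With 1 mouse left out the Kat2a difference had adjusted p from 0.0165 to 0.0894 and kept its call only without miR-185-inh mouse 1 or 3, that is, it lost it in 14 of 16 fits. Fkbp5 had adjusted p from 0.0398 to 0.0737 and lost its call in 10 of 16, keeping it without ctrl-inh mouse 4 or miR-185-inh mouse 1, 6, 7, 8 or 12. Among 13 other settings Kat2a lost its call in 10 and Fkbp5 in 8, with adjusted p of 0.0550 and 0.0623 under normexp, 0.0590 and 0.0553 under quantile normalization and 0.0667 and 0.0560 without a filter. With 1 mouse left out, the called slopes were lost in 13 of 16 fits for Klf15, 12 for Ppargc1b and 14 for Sds. They were lost in 14 for Fkbp5, 4 for Per1 and 3 for Lpin1. Each of these 6 was lost without miR-185-inh mouse 3, without mouse 6 and without mouse 7 (limma adjusted p from 0.0513 to 0.0936 without mouse 7). With the dimmer Foxo1 probe standing for Foxo1, all but Lpin1 lost the call (limma adjusted p from 0.0692 for Per1 to 0.246 for Ppargc1b).

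Markers of other cell types were read on the same arrays. All 8 neutrophil markers had differences below 0 and 2 of them, Ltf and Ngp, fell by limma. Their summed linear levels, over the 8 markers, were 4.10 to 14.9 in ctrl-inh and 1.94 to 12.4 in miR-185-inh. Ltf rose well above background in all 8 controls but in only 3 treated mice. For Mpo the counts were 7 controls and 3 treated mice. Most treated values of these genes are thus background readings, and the sizes of their falls are uncertain. Ngp rose well above background in every mouse. Of 5 acinar markers tested, Cel fell by limma, at -0.48, beside 4.73% of all features called. All 5 had an unadjusted limma p under 0.05, where 20.2% of all features did. Cela1, Cela3b and Ctrb1 were at -0.61, -0.36 and -0.89 and Cela2a at 0.61. Ctrb1 met the filter of 8 arrays through 6 controls and only 2 treated mice. Its treated values are thus mostly background readings, and the size of its fall is uncertain. The summed level was 0.778 to 1.1 in ctrl-inh and 0.519 to 1.11 in miR-185-inh. The macrophage, lymphocyte, endothelial, stellate, cholangiocyte and adipocyte lists had 0 called genes by limma and 0 at an unadjusted p under 0.05. Over all features these shares were 4.73% and 20.2%. The part of these cells in the values above was not tested.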

How the data were processed

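Members and gene lists were chosen with earlier results of these data known. The deposited scanner files hold spot intensity values, background-subtracted by Feature Extraction 11.5.1.1, per the file headers. The version in the submitters' processing notes is 9.1. Flags for spots well above background, saturated or outlying were deposited too. The deposited value table is on a log2 scale and equalled log2 of the processed intensity minus 1 constant an array (SD at most 4.05e-07), with column medians from -1.30 to -1.22. The sources used here do not say how the authors chose the constant. Nothing was saturated among the members.

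Here log2 intensity minus each array's 75th percentile was used, without outlier spots and with the spots of a probe averaged. Features well above background on at least 8 of 16 arrays were tested, each gene by its brightest probe. Accessions were matched without version to RefSeq, and 26762 of 55681 probes were named; the array grid is on mm9, so the table served for names only, apart from the promoter windows, which are RefSeq's own. Groups and slopes on Foxo1 were fitted with limma 3.58.1 (R 4.3.3), two-sided, adjusted over all features, and checked on simulated data. Single genes were tested over all splits or pairings of mice, two-sided. Named genes are the members, Cyp7a1, the 4 of smallest p in each pathway list and the 5 features most and least like Foxo1. The features most and least like Foxo1 were taken among those with a gene symbol and values on all 16 arrays. Symbols beginning with Gm and a digit, LOC or Olfr, or ending in Rik, were left out. Cebpa, the list genes named for a called slope and the cell type markers were named outside this rule. Alternatives were normexp (offset 50), quantile normalization, a percentile over detected probes, the value table, other filters, the mean of probes, slide position, each mouse left out, a replicate block, and leaving out mice 3 and 6. The counts of slopes under settings other than normexp, quantile, slide position and mice 3 and 6, and the alternatives for lists and list genes, were chosen after seeing the data.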

Additional observations from a re-analysis of the deposited data

Results flagged for a closer look

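Over 20 groups of 8 mice (the 9 tested members and Cyp7a1, in each treatment), 3 held a value set apart from the rest of its group by a gap that is large for the group's range, a test that marks some groups by chance alone. In ctrl-inh livers Foxo1 was highest in mouse 4, at 1.94. Igfbp1 was lowest in ctrl-inh mouse 3, at 3.78. Ppargc1a was lowest in miR-185-inh mouse 10, at -0.38. Mice 3 and 6 of the miR-185-inh group were not marked for Foxo1: their values were 2.30 and 2.53, and the next mouse of the group was at 2.0.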

How the results depend on the processing

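No member passed an adjusted p of 0.05 by limma in any alternative run, and the Foxo1 difference ran from 0.16 to 0.37 and that of Igfbp1 from -0.85 to -0.22. The features called between the groups, 1220 (320 higher and 900 lower), were 0 in slide row 1, 466 in row 2, 0 with a replicate block over the 5 shared mouse numbers and 0 over the same 10 arrays without it, and 742 to 1586 with 1 mouse left out (742 without miR-185-inh mouse 7, 787 without mouse 6 and 789 without ctrl-inh mouse 12). Same-numbered mice had correlations of deviations from -0.13 to 0.11. These show no shared deviation, but they cannot tell whether the numbers pair the mice, which the labels do not say. The split was 396 higher and 469 lower under quantile normalization, 554 and 598 under normexp, and 324 and 1494 with the percentile over detected probes. Called slopes on Foxo1, 125, were 81 with that percentile, 47 without a filter, 0 with slide row and column, 0 in row 1, 0 in row 2, 0 without mice 3 and 6, and 0 to 150 with 1 mouse left out. Without a filter more features are tested and in a row fewer arrays; the other causes were not tested.

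Small differences turned sign. For Pck1 the value was -0.056 with normexp, -0.072 in row 2, -0.045 without mice 3 and 6 and -0.017 to 0.089 with 1 mouse left out. For Sesn1 it was 0.18 with normexp, 0.13 in row 1 and -0.046 to 0.037 with 1 mouse left out. For Ppargc1a it was -0.0078 with the detected percentile, -0.058 with the mean of probes, -0.16 in row 2, -0.053 without mice 3 and 6 and -0.037 to 0.13 with 1 mouse left out. Foxo3 was 0.11 in row 1, Sesn3 0.020 without mice 3 and 6, and Bcl6 -0.042 with the replicate block and -0.042 over the same arrays without it. Among r with Foxo1, G6pc was -0.042 with normexp, -0.10 with quantile, -0.043 with the detected percentile, -0.12 with the mean of probes, -0.20 with the dimmer Foxo1 probe and -0.25 to 0.30 with 1 mouse left out. Bcl6 was -0.032, -0.014, -0.0073 and -0.088 under quantile, detected percentile, mean of probes and the dimmer probe, and -0.17 to 0.26 with 1 mouse left out. Cyp7a1 was -0.25 to 0.50 with 1 mouse left out, -0.78 in row 2 and -0.64 without mice 3 and 6. Sesn1 was -0.067 in row 1, Lpin1 -0.061 in row 2. Row 2 also turned Foxo3 (-0.64), Igfbp1 (0.67) and Ppargc1a (-0.35), and leaving out mice 3 and 6 turned Igfbp1 (0.14) and Ppargc1a (-0.15). Signal over background left Foxo4 without a test.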
